A study of Arabidopsis thaliana with 47 samples.

Results

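REVEILLE proteins (RVE) are transcription factors with a single MYB repeat, the family to which the clock proteins CCA1 and LHY also belong. LNK proteins carry no DNA-binding domain of their own and act as transcriptional coactivators that REVEILLE proteins bring to promoters. In Arabidopsis, RVE8 and its relatives RVE4 and RVE6 work with LNK1 and LNK2 to activate evening genes such as PRR5 and TOC1, whereas RVE1, RVE2 and RVE7 belong to another branch of the family with roles in clock outputs such as growth and greening. Transcripts of most of these genes cycle over the day and are known to be abundant in the morning.

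Of 8 genes listed, 7 had a probe set assigned to them alone and were measured, out of 20276 probe sets assigned to a single gene. They were RVE1 (AT5G17300), RVE2 (AT5G37260), RVE8 (AT3G09600), LNK1 (AT5G64170), LNK2 (AT3G54500), LNK3 (AT3G12320) and LNK4 (AT5G06980). RVE7 (AT1G18330) had no probe set assigned to it alone and no value is given for it. The genes were chosen as a family by locus, but selected on log2 signals across these same groups that were already known, so their levels and differences are given below as descriptions, without a test. Standard errors are those of a linear model fitted to all arrays.

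RNA of whole wild-type (Col-0) Arabidopsis seedlings was hybridised to 47 Affymetrix ATH1 arrays, each carrying RNA of a pool of seedlings, and the replicate sets were grown separately. Seedlings grew with 0.5 mM lincomycin (+Lin), an antibiotic that blocks protein synthesis in plastids and so stops chloroplast development, or without it (-Lin), on medium with 2% sucrose. All were 7 days old and had spent 6 days in dim light, a mix of blue and red at 0.5 µmol m-2 s-1. They were sampled at 0 h in that dim light, or 0.5, 1, 4 and 24 h after a shift to the same mix at 60 µmol m-2 s-1. Each treatment had 8 arrays at 0 h and 4 at each later time, except 3 at 1 h with lincomycin. The comparisons address how a block of plastid development alters these transcripts, and how they respond to the shift in each treatment. No group stayed in dim light after 0 h, so brighter light and elapsed time, which for clock genes includes the time of day, cannot be told apart in the light responses.

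Signals are given as log2(signal + 1), so a difference of 1 is a doubling, and levels are compared within a gene and never between genes. The 0 h arrays were numbered 1 to 4 and 5 to 8, and both sets are shown apart. The spike-in control Dap, added to samples during array preparation, averaged 8.99 to 9.45 on the 11 early arrays with lincomycin (0.5 h, 1 h and 0 h numbers 1 to 4) and 3.01 to 5.02 on the 12 early arrays without it. On 23 of the late arrays (4 h, 24 h and 0 h numbers 5 to 8) of both treatments it was 8.08 to 9.01. Treatment and spike-in level therefore cannot be told apart in the early lincomycin comparisons. Light responses at 0.5 and 1 h were taken against 0 h numbers 1 to 4, and those at 4 and 24 h against numbers 5 to 8, which had like spike-in levels.

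The array numbered 4 in the 24 h group without lincomycin differed from all others. Its median rank correlation with the other arrays was 0.618, against 0.915 to 0.949 for the other 46, and its Dap level was 4.52. Beside the 24 h results that array 4 moved by over 1.5 times or whose call it changed, the value without it is given, unless stated otherwise. All groups share the estimate of spread of a gene, so array 4 can also widen the standard errors at other times. Without it, the SE of the lincomycin difference at 4 h went from 0.22 to 0.12 for LNK1 and from 0.15 to 0.10 for RVE2. For RVE1 it moved little, from 0.15 to 0.14. Of the organ markers, the shoot genes AS1 and STM lay above the first quartile of the array on 47 of 47 arrays, as did the root gene PYK10. Summed signals of 5 root markers were 16270 to 24964 on the early arrays and 21959 to 38643 on the late ones, and 3 seed storage genes summed to at most 171 on the early and 1464 on the late arrays. The root sums were mainly PYK10, at 13.89 to 15.16 on the log2 scale, whereas the next brightest root marker, SCR, reached at most 10.04. AS1, which acts in leaf development, rose with lincomycin at 0 h (0.40 ± 0.09, SE, limma adjusted p = 0.00068) and fell at 4 h (-0.38 ± 0.13, limma adjusted p = 0.044) and at 24 h (-0.56 ± 0.13, limma adjusted p = 0.00085). At 24 h 1 of 2 shoot markers was lower, and of the 5 root markers SHR was higher (0.62 ± 0.25, limma adjusted p = 0.0495) and RHD6 lower (-1.22 ± 0.48, limma adjusted p = 0.047). Without array 4 neither root marker passed the test (0.36 ± 0.24 and -0.53 ± 0.43, limma adjusted p = 0.29 and 0.40). The part of organ proportions in the differences below was not tested, and in whole seedlings fewer expressing cells and less RNA per cell cannot be told apart.

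**Figure D1:**
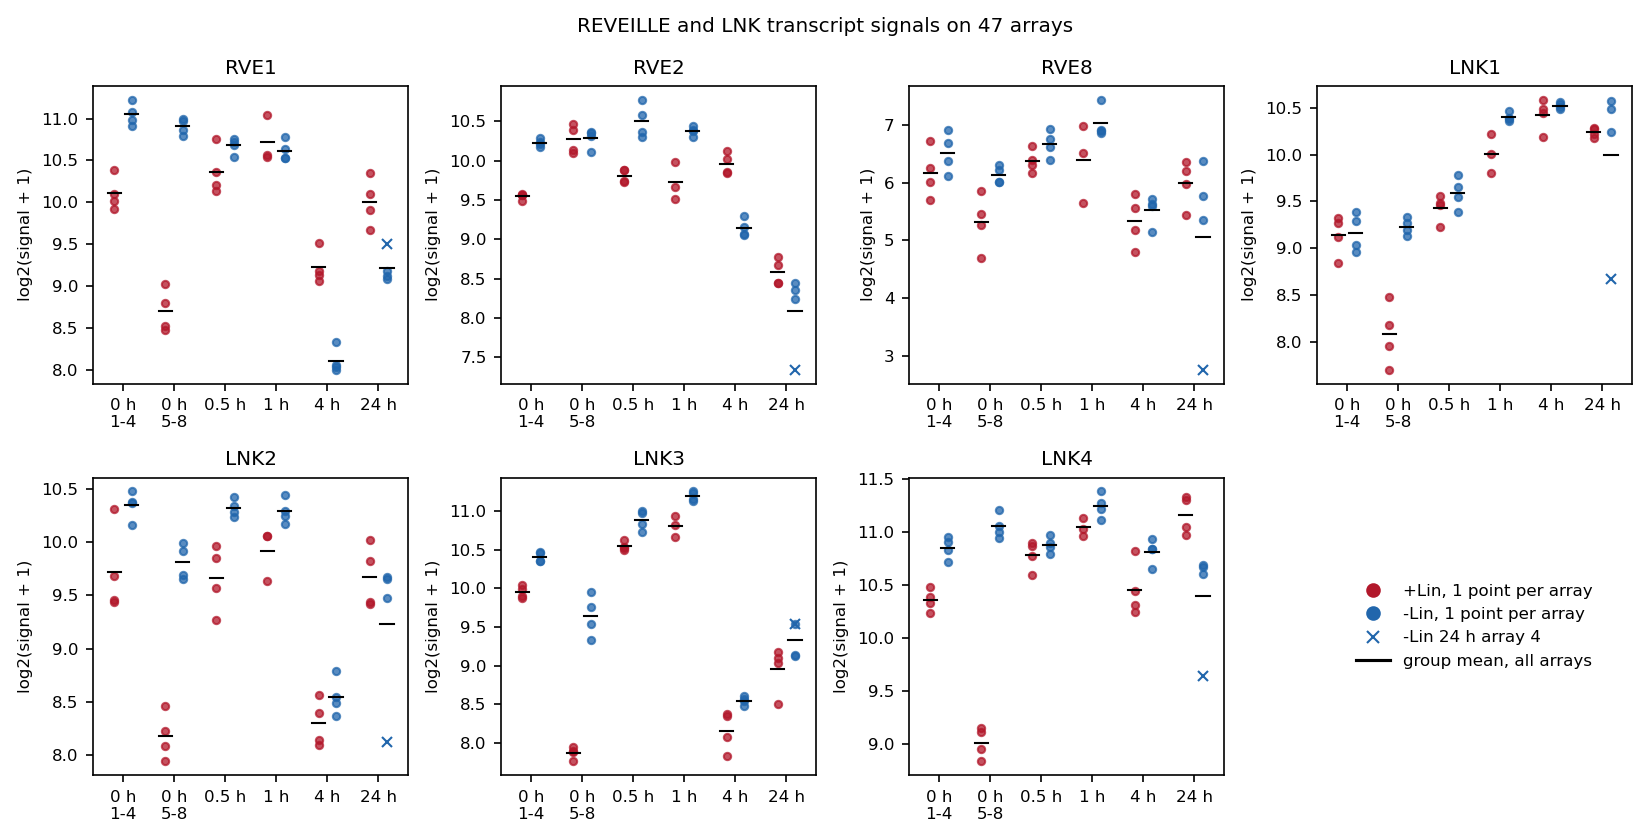
Signal of each measured gene as log2(signal + 1) on the y axis, 1 point per array and a bar at the group mean, with the 0 h arrays of numbers 1 to 4 and 5 to 8 apart on the x axis. Red points are arrays with lincomycin and blue points, to their right, arrays without it, and a cross marks array 4 at 24 h without lincomycin. RVE1 with lincomycin lies below RVE1 without it at 0 h and above it at 4 and 24 h, and 0 h numbers 5 to 8 with lincomycin are the lowest group for LNK1, LNK2, LNK3 and LNK4.

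Before the light shift all 7 genes averaged lower with lincomycin than without it, by 0.34 (RVE2) to 1.57 (RVE1) on the log2 scale, with a median difference of -1.11 against 0.16 over all probe sets. For 2 of 7 genes, RVE1 and LNK4, every one of the 8 arrays with lincomycin lay below all 8 without it. Over all 22746 probe sets 9.04% had groups of arrays that did not overlap in this comparison. The differences were larger in 0 h numbers 5 to 8, where the treatments had like spike-in levels: there 6 of 7 genes, all but RVE2, lay lower on every array with lincomycin (29.7% of all probe sets did not overlap). Of these, RVE8 was dim, with 3 of its 4 arrays with lincomycin at or below the first quartile of the array. In numbers 1 to 4 the genes below were RVE1, RVE2, LNK3 and LNK4, 4 of 7 (30.4% of all probe sets).

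RVE1 promotes the expression of PORA and the greening of dark-grown seedlings, and also auxin synthesis. Its signals at 0 h in numbers 5 to 8 were 8.47, 8.52, 8.79 and 9.02 with lincomycin, against 10.99, 10.87, 10.97 and 10.80 without it. Every array with lincomycin was lower, by more than the range of either group. The difference was -2.20 ± 0.15 (SE) in numbers 5 to 8 and -0.94 ± 0.15 in numbers 1 to 4, and -1.57 ± 0.10 over both, which is 2.98-fold lower with lincomycin.

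LNK4, a relative of LNK1 and LNK2, had signals of 8.84, 9.15, 9.11 and 8.95 with lincomycin in 0 h numbers 5 to 8, against 10.94, 11.01, 11.21 and 11.06 without it. The groups were well separated, with a difference of -2.04 ± 0.15 in this set and -0.49 ± 0.15 in numbers 1 to 4. LNK3 had 7.76, 7.88, 7.89 and 7.94 with lincomycin, against 9.32, 9.75, 9.96 and 9.53 without it, in numbers 5 to 8. It too was lower on every array with lincomycin, by 1.77 ± 0.13 there and 0.46 ± 0.13 in numbers 1 to 4.

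LNK2, a coactivator of PRR5 and TOC1, had signals of 8.08, 7.94, 8.22 and 8.46 with lincomycin in numbers 5 to 8, against 9.65, 9.92, 9.99 and 9.69 without it. The difference was -1.64 ± 0.22 there, and in numbers 1 to 4, where the arrays overlapped, it was -0.62 ± 0.22. LNK1, which shares that role with LNK2, had 7.95, 7.70, 8.48 and 8.18 with lincomycin in numbers 5 to 8, against 9.19, 9.33, 9.27 and 9.13 without it. All 4 arrays with lincomycin were lower in that set (-1.15 ± 0.22), whereas the groups overlapped in numbers 1 to 4 (-0.03 ± 0.22).

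RVE2, known for its effect on flowering and hypocotyl length when overexpressed, was the exception. It had 10.39, 10.46, 10.10 and 10.14 with lincomycin in numbers 5 to 8, against 10.37, 10.35, 10.31 and 10.11 without it. These groups overlapped (-0.01 ± 0.15), but in numbers 1 to 4 all arrays with lincomycin were lower (-0.68 ± 0.15). RVE8, the activator of evening genes, was dim: 12 of its 47 signals lay at or below the first quartile of their array, a floor chosen with the data known. Its cell means ranged over 1.97 log2 units, arrays of every group overlapped those of its neighbour in the order of levels (11 of 11), and no fold change is given for it. At 0 h its 8 arrays with lincomycin averaged 5.75 ± 0.62 (SD), against 6.33 ± 0.32 on the 8 without it.

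The 0 h sets differed between themselves. With lincomycin 6 of 7 genes had non-overlapping sets (26.8% of all probe sets), and without it 2 of 7 (34.4%). With lincomycin, numbers 5 to 8 minus numbers 1 to 4 gave -2.08 ± 0.13 for LNK3, -1.55 ± 0.22 for LNK2, -1.41 ± 0.15 for RVE1, -1.34 ± 0.15 for LNK4 and -1.06 ± 0.22 for LNK1, and 0.72 ± 0.15 for RVE2. Without it, LNK3 (-0.76 ± 0.13) and LNK2 (-0.54 ± 0.22) lay lower in numbers 5 to 8. Spike-in level differed between these sets without lincomycin, and its part was not tested.

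At 0.5 h all 7 genes averaged lower with lincomycin (by 0.09 to 0.70), and 3 of 7, RVE2, LNK2 and LNK3, did not overlap (28.7% of all probe sets). At 1 h 6 of 7 averaged lower, and RVE2, LNK1, LNK2 and LNK3, 4 of 7, did not overlap (32% of all probe sets). RVE1 had 10.56, 11.04 and 10.54 at 1 h with lincomycin, against 10.78, 10.54, 10.53 and 10.63 without it. The groups overlapped, with a difference of 0.10 ± 0.16. Taken within sets of like spike-in level, as the difference of the light responses plus that in 0 h numbers 5 to 8, a calculation chosen after seeing the data, the lincomycin difference of RVE1 became -1.58 ± 0.25 at 0.5 h and -1.16 ± 0.26 at 1 h, and that of LNK4 -1.64 ± 0.25 and -1.75 ± 0.26. LNK1 gave -1.28 ± 0.38 at 0.5 h and -1.51 ± 0.39 at 1 h, LNK2 -1.67 ± 0.38 and -1.39 ± 0.39, and LNK3 -1.66 ± 0.22 and -1.70 ± 0.22. RVE2 gave -0.04 ± 0.25 and 0.01 ± 0.26. This calculation adds the same amount to the direct difference at both times. That amount is the lincomycin difference in 0 h numbers 5 to 8 minus that in numbers 1 to 4. It was below 0 for 6 of 7 genes, all but RVE2, so the shift at both times restates the 0 h sets.

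At 4 h the genes had no common direction. RVE1 was higher with lincomycin, at 9.51, 9.18, 9.07 and 9.14 against 8.03, 8.05, 8.34 and 7.997 without it. Every array with lincomycin was higher, by 1.12 ± 0.15 (2.17-fold). RVE2 was also higher on every array, at 9.85, 9.84, 10.02 and 10.13 with lincomycin against 9.30, 9.05, 9.16 and 9.07 without it (0.81 ± 0.15). LNK3 was lower on every array with lincomycin (-0.39 ± 0.13), and the other 4 overlapped. Thus 3 of 7 genes had non-overlapping arrays, as did 27.1% of all probe sets.

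At 24 h RVE1 and LNK4 were higher with lincomycin on every array, and the remaining 5 of 7 overlapped (2 of 7 apart, 24.2% of all probe sets). RVE1 had 10.35, 10.10, 9.91 and 9.67 with lincomycin, against 9.08, 9.12, 9.18 and 9.51 without it (0.79 ± 0.15). LNK4 had 11.33, 11.30, 10.97 and 11.05 with lincomycin, against 10.69, 10.61, 10.67 and 9.64 without it (0.76 ± 0.15). The lowest LNK4 value without lincomycin was that of array 4, and without that array the difference was 0.51 ± 0.11, still with no overlap. Without array 4, again 2 of 7 genes did not overlap, RVE1 and LNK4, as did 37.9% of all probe sets. For LNK1 the difference was 0.25 ± 0.22 with that array and -0.19 ± 0.13 without it, for LNK2 0.45 ± 0.22 and 0.08 ± 0.18, and for RVE2 0.49 ± 0.15 and 0.24 ± 0.11.

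**Figure D2:**
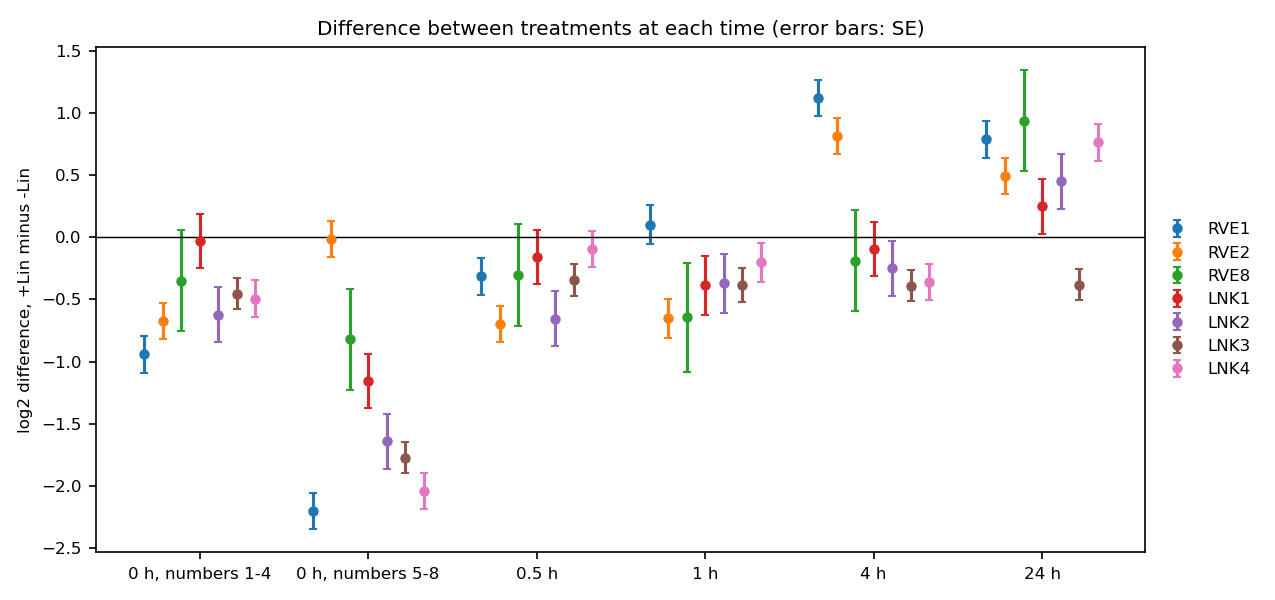
Log2 difference (+Lin minus -Lin) on the y axis at 0 h in each set, 0.5, 1, 4 and 24 h on the x axis, 1 colour per gene, with error bars of 1 SE from the linear model. In 0 h numbers 5 to 8 RVE1 lies lowest (-2.20) and RVE2 near 0, whereas RVE1 is the highest at 4 h (1.12).

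Light responses at 0.5 and 1 h depended on the 0 h arrays used. Against 0 h numbers 1 to 4 with lincomycin, RVE2, LNK3 and LNK4 were higher at 0.5 h than at 0 h on every array, 3 of 7 (3.53% of all probe sets), and RVE1, LNK1, LNK3 and LNK4 at 1 h, 4 of 7 (8.45%). Without it, 4 of 7 genes did not overlap at 0.5 h (7.41%), RVE1 lower and RVE2, LNK1 and LNK3 higher, and 5 of 7 at 1 h (16.7%), RVE1 lower and RVE2, LNK1, LNK3 and LNK4 higher. LNK1 had 9.80, 10.01 and 10.22 at 1 h with lincomycin, against 8.84, 9.32, 9.27 and 9.12 at 0 h. It was 1.83-fold higher (0.88 ± 0.24), and without lincomycin 2.35-fold higher (1.23 ± 0.22). RVE1 went opposite ways: 0.61 ± 0.16 with lincomycin and -0.43 ± 0.15 without it at 1 h.

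Against the mean of both 0 h sets the early responses with lincomycin were larger for RVE1 and the LNK genes. LNK3 gave 1.63 ± 0.11 at 0.5 h and 1.90 ± 0.12 at 1 h, against 0.59 ± 0.13 and 0.85 ± 0.14 with numbers 1 to 4. LNK4 gave 1.10 ± 0.13 and 1.36 ± 0.14, RVE1 0.96 ± 0.13 and 1.31 ± 0.14, LNK1 0.83 ± 0.19 and 1.41 ± 0.21, and LNK2 0.72 ± 0.19 and 0.97 ± 0.21. RVE2 turned below 0, at -0.10 ± 0.13 and -0.19 ± 0.14. Without lincomycin LNK3 gave 0.86 ± 0.11 and 1.17 ± 0.11, against 0.48 ± 0.13 and 0.79 ± 0.13, and LNK2, whose arrays overlapped with 0 h, gave 0.24 ± 0.19 and 0.21 ± 0.19, against -0.03 ± 0.22 and -0.06 ± 0.22.

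At 4 h without lincomycin all 7 genes differed from 0 h with no overlap, as did 39.5% of all probe sets. RVE1 had 8.03, 8.05, 8.34 and 7.997 at 4 h, against 10.99, 10.87, 10.97 and 10.80 at 0 h, 6.98-fold lower (-2.80 ± 0.15). LNK2 had 8.54, 8.48, 8.37 and 8.79 at 4 h, against 9.65, 9.92, 9.99 and 9.69 at 0 h (-1.27 ± 0.22). RVE2 (-1.14 ± 0.15), LNK3 (-1.09 ± 0.13) and LNK4 (-0.24 ± 0.15) were lower as well, as was RVE8, whose 4 h arrays were dim (5.53 ± 0.26, SD). LNK1 alone was higher, at 10.48, 10.54, 10.51 and 10.56 at 4 h against 9.19, 9.33, 9.27 and 9.13 at 0 h (1.29 ± 0.22). Thus 6 of 7 were lower and 1 of 7 higher.

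With lincomycin the 4 h response was different. LNK1 had 10.19, 10.49, 10.59 and 10.45 at 4 h, against 7.95, 7.70, 8.48 and 8.18 at 0 h, 5.11-fold higher (2.35 ± 0.22). LNK4 had 10.83, 10.44, 10.24 and 10.31 at 4 h, against 8.84, 9.15, 9.11 and 8.95 at 0 h, 2.72-fold higher (1.44 ± 0.15). RVE1 was higher by 0.52 ± 0.15, and the arrays of the other 4 genes overlapped, so 3 of 7 were apart (25.1% of all probe sets). LNK2 differed by 0.12 ± 0.22 and LNK3 by 0.29 ± 0.13, and the 0 h levels of both in numbers 5 to 8 were the lowest of their 12 group means.

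At 24 h with lincomycin 6 of 7 genes did not overlap with 0 h (31.1% of all probe sets), all but RVE8. LNK1 (2.16 ± 0.22), LNK4 (2.15 ± 0.15), LNK2 (1.505 ± 0.22), RVE1 (1.30 ± 0.15) and LNK3 (1.08 ± 0.13) were higher, and RVE2 was lower (-1.68 ± 0.15). RVE2 had 8.68, 8.44, 8.45 and 8.78 at 24 h, against 10.39, 10.46, 10.10 and 10.14 at 0 h. Without lincomycin RVE2 also lay lower, with 8.45, 8.24, 8.35 and 7.34 at 24 h against 10.37, 10.35, 10.31 and 10.11 at 0 h (-2.19 ± 0.15). RVE1 (-1.69 ± 0.15) and LNK4 (-0.65 ± 0.15) were lower on every array, and the other 4 overlapped, so 3 of 7 were apart (30.7% of all probe sets). Without array 4, LNK1 joined the genes that were apart, 1.202 ± 0.13 higher at 24 h, so that 4 of 7 were apart (46.4% of all probe sets), and RVE2 was lower by 1.94 ± 0.11, RVE1 by 1.78 ± 0.15 and LNK4 by 0.40 ± 0.11. For LNK2 the difference was -0.58 ± 0.22 with array 4 and -0.21 ± 0.18 without it.

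The 4 h and 24 h responses of a treatment share the same 0 h arrays. Taken against the mean of both 0 h sets, the 4 h response with lincomycin turned below 0 for RVE1 (-0.18 ± 0.13), LNK2 (-0.65 ± 0.19) and LNK3 (-0.75 ± 0.11), and for RVE2 it turned above 0 (0.05 ± 0.13, against -0.31 ± 0.15). It was 0.77 ± 0.13 for LNK4 and 1.82 ± 0.19 for LNK1. The corresponding 24 h values were 0.60 ± 0.13 for RVE1, 0.73 ± 0.19 for LNK2, 0.04 ± 0.11 for LNK3 and 1.48 ± 0.13 for LNK4. Without lincomycin the same change of 0 h arrays moved RVE1 little, to -2.87 ± 0.13 at 4 h and -1.76 ± 0.13 at 24 h. LNK3 moved more, to -1.48 ± 0.11 (from -1.09) at 4 h and -0.69 ± 0.11 (from -0.31) at 24 h. LNK2 moved to -1.54 ± 0.19 (from -1.27) and -0.85 ± 0.19 (from -0.58). These 24 h values are with all arrays.

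The difference between the light responses (+Lin minus -Lin) was above 0 at 4 and 24 h for the RVE1, RVE2 and LNK genes. It is not given for the dim RVE8. For RVE1 it was 3.32 ± 0.21 at 4 h and 2.99 ± 0.21 at 24 h, and for LNK4 1.68 ± 0.21 and 2.80 ± 0.21. At 4 h it was 1.39 ± 0.31 for LNK2, 1.38 ± 0.18 for LNK3, 1.06 ± 0.31 for LNK1 and 0.83 ± 0.21 for RVE2. At 24 h without array 4 it was 3.08 ± 0.21 for RVE1, 2.55 ± 0.15 for LNK4, 1.72 ± 0.24 for LNK2 and 1.46 ± 0.18 for LNK3. For LNK1 it was 0.96 ± 0.18 (1.40 ± 0.31 with that array) and for RVE2 0.25 ± 0.15 (0.51 ± 0.21 with that array). Against the mean of both 0 h sets, a choice made after seeing the data, it stayed above 0 for these 6 genes at both times, with smaller values for all but RVE2. At 4 h it was then 2.69 ± 0.18 for RVE1, 1.16 ± 0.18 for RVE2, 0.91 ± 0.18 for LNK4, 0.88 ± 0.27 for LNK2, 0.72 ± 0.15 for LNK3 and 0.50 ± 0.27 for LNK1. At 24 h, with all arrays, it was 2.36 ± 0.18 for RVE1, 2.03 ± 0.18 for LNK4 and 1.58 ± 0.27 for LNK2. It was 0.84 ± 0.27 for LNK1, 0.84 ± 0.18 for RVE2 and 0.73 ± 0.15 for LNK3. This difference equals the later lincomycin difference minus that at 0 h. In 0 h numbers 1 to 4 alone, the latter was -0.03 for LNK1, -0.46 for LNK3 and -0.49 for LNK4. These lay near the 4 h values (-0.09, -0.39 and -0.36), and for LNK3 the 24 h value (-0.38). With that set alone their responses thus hardly differed at 4 h. RVE1, RVE2 and LNK2 had -0.94, -0.68 and -0.62, below their 4 h values (1.12, 0.81 and -0.25). At 24 h the others lay higher with all arrays. Without array 4, LNK1 lay at -0.19, below its -0.03 in that 0 h set. RVE1 (0.88), RVE2 (0.24), LNK2 (0.08) and LNK4 (0.51) still lay higher.

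**Figure D3:**
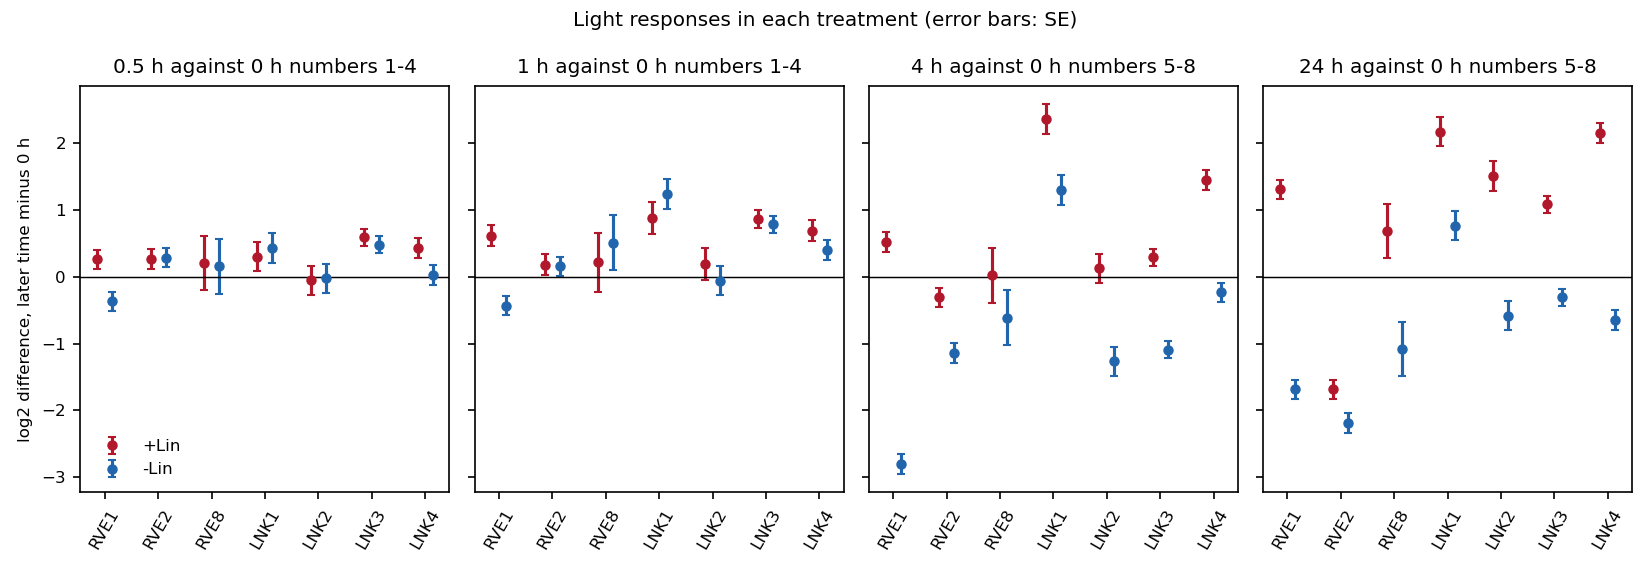
Log2 difference (later time minus 0 h) on the y axis for each gene on the x axis at 0.5, 1, 4 and 24 h, with (red) and, to the right, without lincomycin (blue), and error bars of 1 SE from the linear model. At 4 h RVE1 without lincomycin reaches -2.80, whereas LNK1 is above 0 in both treatments, at 2.35 with lincomycin and 1.29 without it.

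In the order of the 12 group means, RVE1 was highest in 0 h numbers 1 to 4 without lincomycin (11.05 ± 0.14, SD, n = 4) and lowest at 4 h without lincomycin (8.10 ± 0.16, n = 4), a span of 2.95. Of its 11 neighbouring pairs of groups 8 overlapped. LNK3 had the widest span of the 7, 3.32, with 6 of 11 neighbours overlapping, between 11.19 ± 0.06 at 1 h without lincomycin and 7.87 ± 0.08 in 0 h numbers 5 to 8 with it (n = 4 each). For LNK1, LNK2, LNK4 and RVE2, 8 to 10 of 11 neighbours overlapped, and their spans were 2.18 to 2.45.

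Profiles over the 12 group means are described by Pearson's r, as a description of groups that share a scaling and the sets of arrays above. LNK2 and LNK3 were alike (0.91), as were LNK2 and RVE1 (0.90), whereas LNK1 was near 0 with LNK2 (0.05), LNK3 (0.10) and RVE1 (-0.11) and nearest to LNK4 (0.68). Among 7155 other genes of sufficient signal and span, the nearest to LNK2 was CCA1, a morning clock gene of the same protein family as RVE1 (0.97), and CCA1 was the second for LNK3 (0.93), after NF-YA1, a subunit of a CCAAT-binding factor (0.93). The nearest to LNK1 were HYH, a bZIP factor of light signalling (0.95), and SIGE, a sigma factor of plastid transcription (0.95). The nearest to LNK4 were PRR7, a morning clock repressor (0.93), RPP5 (0.92) and PMI1 (0.91). For RVE1 they were AT3G51730 (0.91), AT2G41250 (0.91) and RVE4 (0.90), whereas CCA1 ranked 27 (0.85) and LHY 152 (0.79). RVE2 was nearest to SUS3, a sucrose synthase (0.96), and ABI1, a phosphatase of abscisic acid signalling (0.96). The nearest to RVE8 was COPT1, a copper transporter (0.96).

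Other clock genes, outputs and anthocyanin genes were taken from lists and tested in the linear model (limma, Benjamini-Hochberg adjusted p under 0.05 over all 22746 probe sets). Of 46 genes 41 were measured. They comprise 12 of 16 core clock genes, 4 of 4 further REVEILLE genes, 16 of 16 clock-regulated outputs and 9 of 10 anthocyanin genes. At 0 h 5 of 41 were higher and 17 lower with lincomycin (21.6% and 10.7% of all probe sets), at 0.5 h 2 and 11 (13.6% and 8.3%), at 1 h 1 and 8 (9.38% and 6.66%), at 4 h 12 and 2 (8.06% and 5.81%) and at 24 h 16 and 3 (19.9% and 13.3%). The early counts changed with the arrays used: 12 of 41 were called at 0 h in numbers 1 to 4 alone, and 8 at 0.5 h and 5 at 1 h within sets of like spike-in level. Without array 4 of the 24 h group without lincomycin, 18 of 41 were called at 24 h, 8 of them core clock genes. For such counts from other arrays or settings, here and below, the share over all probe sets is not given. Standard errors differ between these fits, so a changed count alone does not show a change in these genes.

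At 0 h the core clock genes showed 1 of 12 higher and 6 of 12 lower with lincomycin, with a median difference of -0.27 against 0.16 over all probe sets. CCA1 fell by 1.34 ± 0.16 (SE, limma adjusted p = 1.5e-08), at 9.27 ± 0.85 (SD) with lincomycin against 10.61 ± 0.29 without it (n = 8 each). The F-box protein gene LKP2 fell by 0.86 ± 0.10 (limma adjusted p = 1.1e-08), and ZTL, which encodes a related photoreceptor that degrades TOC1, fell by 0.75 ± 0.09 (limma adjusted p = 1.1e-08). PRR3 was the gene that rose (0.61 ± 0.19, limma adjusted p = 0.0096). Of the further REVEILLE genes 3 of 4 were lower, with RVE4 at -1.18 ± 0.08 (limma adjusted p = 9.4e-15). Of the outputs 1 of 16 was higher and 8 lower, among them PIF5, which encodes a growth-promoting bHLH factor (-0.92 ± 0.15), and CDF2, which encodes a repressor of flowering (-0.84 ± 0.10), while 3 of 9 anthocyanin genes were higher.

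At 24 h with all arrays, 9 of 12 core clock genes were higher with lincomycin and 0 lower by limma (0 lower also at an unadjusted p under 0.05). Their median difference was 0.69 against -0.07 over all probe sets. PRR5 rose by 1.28 ± 0.15 (limma adjusted p = 1.1e-08), ZTL by 0.99 ± 0.12 (limma adjusted p = 5.3e-08) and ELF4, a subunit of the evening complex, by 0.92 ± 0.18 (limma adjusted p = 0.00012). GI did not pass the test (0.17). Without array 4, CCA1 (0.30 ± 0.12, against 0.78 with all arrays), LHY (0.36 ± 0.15, against 0.70) and PRR7 (0.22 ± 0.12, against 0.34) no longer passed the test (limma adjusted p = 0.059, 0.064 and 0.16). As 8 of 12 were called without that array, other core clock genes gained a call, and their names and directions are not given here. Among the further REVEILLE genes RVE4 (1.21 ± 0.11) and RVE5 (0.40 ± 0.14) rose, 2 of 4, and 1 of 4 was called when array 2 or 3 without lincomycin or array 2 or 4 with it was left out. Of the outputs 5 of 16 were higher, among them GRP7, an RNA-binding protein gene (1.92 ± 0.53, and 0.66 ± 0.14 without array 4, limma adjusted p = 0.0043 and 0.00025), and 2 lower, CDF1 (-1.13 ± 0.22) and PORA, which encodes a protochlorophyllide reductase (lower by at least 1.41). At 4 h, 3 of 12 core clock genes were higher, PRR3, ELF3 and LKP2, and 5 of 9 anthocyanin genes were higher and 1 lower. These counts moved with single arrays: 7 of 12 core clock genes were called at 4 h when array 4 at 24 h without lincomycin was left out of the fit, and 3 of 9 anthocyanin genes when array 1 at 4 h with lincomycin was left out.

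After the shift, list genes called higher and lower numbered 3 and 0 of 41 at 0.5 h with lincomycin (0.167% and 0.18% of all probe sets), 6 and 0 at 1 h (0.958% and 0.545%), 13 and 3 at 4 h (7.16% and 6.36%) and 13 and 6 at 24 h (9.89% and 12.4%). Without lincomycin they numbered 3 and 0 at 0.5 h (0.387% and 0.466%), 9 and 3 at 1 h (3% and 2.68%), 5 and 18 at 4 h (17.3% and 16.2%) and 7 and 19 at 24 h (20.7% and 21.5%), where 27 were called without array 4. Against the mean of both 0 h sets, the calls at 0.5 h numbered 13 with lincomycin and 7 without it, and 14 at 1 h with lincomycin. The counts of 0 lower among the 41 by limma stayed 0 at an unadjusted p under 0.05. At 0.5 h limma called 0 of the 12 core clock genes in either treatment, and at an unadjusted p under 0.05 there were 1 higher with lincomycin and 3 higher without it. Against the mean of both 0 h sets limma called 4 of the 12 at 0.5 h with lincomycin. GI, a large clock protein that links light to flowering, rose at 1 h by 1.48 ± 0.24 with lincomycin and 1.67 ± 0.22 without it, and ELF4 by 1.25 ± 0.20 and 1.10 ± 0.18. RVE3 was higher at 1 h without lincomycin by 3.17 ± 0.44, and with it by at least 1.89 log2 units, since its 0 h mean lay at or below the first quartile of the arrays.

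At 4 h, 6 of 12 core clock genes were higher and 0 lower with lincomycin, and 2 were higher and 8 lower without it. CCA1 and LHY did not pass the test with lincomycin (0.20 and 0.03), and fell by 1.09 ± 0.23 and 1.02 ± 0.20 without it. At 24 h, 5 core clock genes were higher and 3 lower with lincomycin, and 0 higher and 7 lower without it, limma counts of 0 that stayed 0 at an unadjusted p under 0.05. CCA1 (1.71 ± 0.23), LHY (1.56 ± 0.20) and PRR7 (1.28 ± 0.12) rose with lincomycin. Without it the evening genes ELF4 (-1.41 ± 0.18) and TOC1 (-1.34 ± 0.13) and the F-box protein gene LKP2 (-1.47 ± 0.14) fell. RVE4 rose by 0.78 ± 0.11 with lincomycin and fell by 1.96 ± 0.11 without it, and COR27, a cold- and clock-regulated gene, fell in both (-1.13 ± 0.28 with it, -3.31 ± 0.28 without it). Without array 4, COR27 fell by 3.89 ± 0.17 without lincomycin, and ELF4 by 1.11 ± 0.15. Against the mean of both 0 h sets, the 24 h responses with lincomycin were 0.92 ± 0.20 for CCA1, 1.15 ± 0.17 for LHY, 0.94 ± 0.10 for PRR7 and 0.33 ± 0.10 for RVE4, and each still passed the test. At 4 h with lincomycin, CCA1 was then called lower (-0.58 ± 0.20, limma adjusted p = 0.026), and so was RVE4 (-0.31 ± 0.10, limma adjusted p = 0.016). The difference between the treatments' responses was not tested for these genes.

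**Figure D4:**
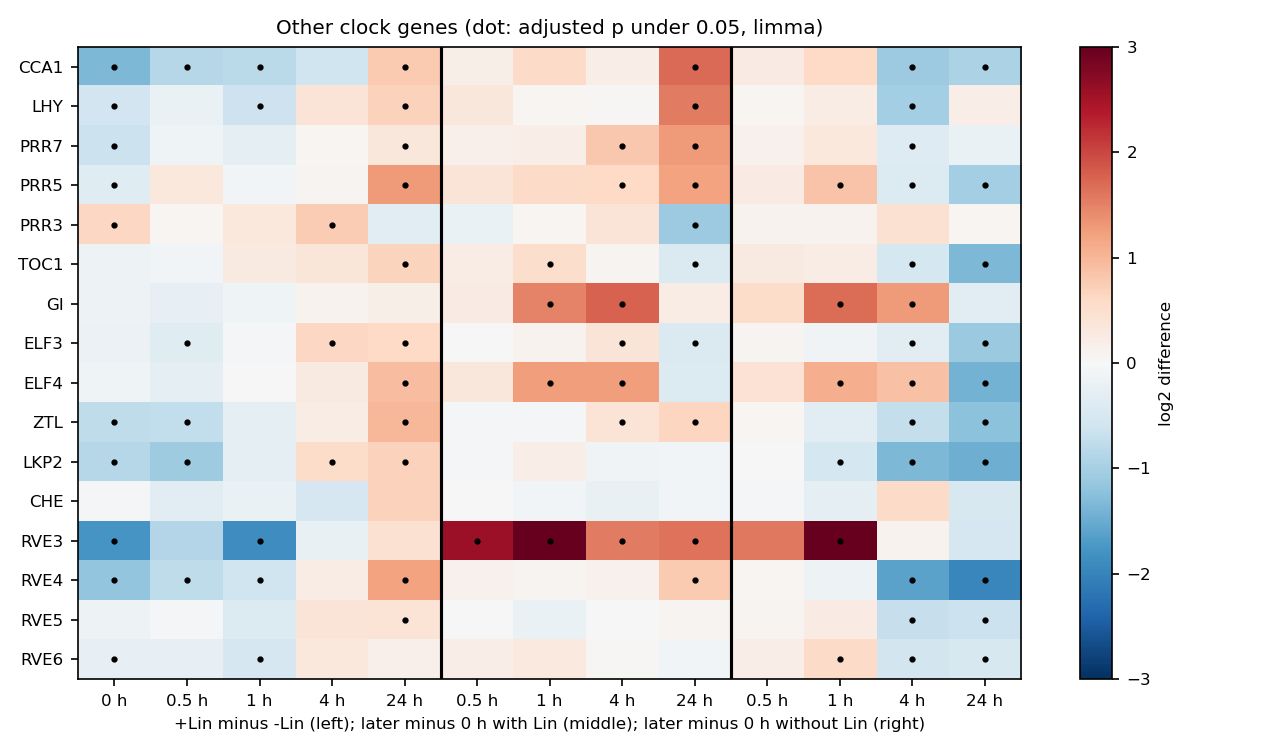
Log2 differences of 12 core clock genes and 4 further REVEILLE genes (rows), as colour, for lincomycin against none at 0, 0.5, 1, 4 and 24 h (left block) and for later times against 0 h with lincomycin (middle block) and without it (right block). Dots mark limma adjusted p under 0.05 over 22746 probe sets. At 24 h the left block is mainly red (9 of 12 core clock genes higher with lincomycin), and at 4 h the right block is mainly blue (8 of 12 lower).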

How the data were processed

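Signal intensities on a linear scale were deposited by the authors for every probe set of each array. MAS5 and GCRMA are named, with no version or role, per the submitters' processing notes. The 2% trimmed mean of the signals was 500.03 to 500.05 on each array. A comparison table deposited by the authors gives log ratios, taken here as log2, and a p-value beside each one, per the file headers; it was used for gene names and as an alternative. The base of the ratios, and the test and adjustment behind the p-values, are not given in the sources used here.

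Values were transformed to log2(signal + 1). Of 22810 probe sets, 64 controls were left out, and 22746 were tested with limma 3.58.1 (lmFit and eBayes) in R 4.3.3 in a single fit of 47 arrays and 12 cells, with no filter on dim probe sets, and Benjamini-Hochberg adjustment within each comparison. The fit was tested on simulated data. Python 3.11.15 was used with numpy 2.4.6, scipy 1.17.1, matplotlib 3.10.9 and pandas 2.3.3. Arrays have no read depth, so their number limits precision. The genes and lists were chosen with earlier results of these data known. Named list genes were up to 3 called per direction by size and 1 not called. Genes named for likeness came from the 3 nearest profiles of each of the 7 genes. Such profiles had a highest cell mean that reached the median and a span of at least 1 log2 unit. No pair of arrays held identical values. Few same-numbered arrays deviated together: 6 of 38 pairs correlated above 0.1 (range -0.15 to 0.32), and 14 of 38 correlated best with their own number. The number expected by chance was not computed. Replicate numbers were not used as pairs in the main fit.

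Alternatives were quantile normalization, a pseudocount of 16, a filter on dim probe sets, the replicate number as a block, other 0 h arrays, leaving out each array, the authors' ratios and, chosen after seeing the data, differences within sets of like spike-in level. No genome sequence was used.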

Additional observations from a re-analysis of the deposited data

Results flagged for a closer look

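Among 77 groups of 4 arrays of the 7 genes, 4 held an array far from the other 3, and chance alone gives about 1 in 20. RVE1 on array 3 at 4 h without lincomycin was 8.34, with the others at 7.997 to 8.05, and RVE8 on array 3 at 1 h without lincomycin was 7.44, with the others at 6.87 to 6.92. LNK2 (8.12, others 9.48 to 9.67) and LNK4 (9.64, others 10.60 to 10.69) were low on array 4 at 24 h without lincomycin, the array that stood apart from the rest.

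In some cases every array with lincomycin moved one way from the 0 h mean and every array without it the other way; these differences between responses were not tested. For RVE1 the difference (+Lin minus -Lin) was 0.63 at 0.5 h, 1.04 at 1 h, 3.32 at 4 h and 2.99 at 24 h. For LNK4 it was 1.68 at 4 h and 2.80 at 24 h, for LNK2 2.09 at 24 h and for LNK3 1.39 at 24 h.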

How the results depend on the processing

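Of 41 list genes, 22 were called for lincomycin at 0 h, and 12 with numbers 1 to 4 alone. Within sets of like spike-in level, chosen after seeing the data, 8 were called at 0.5 h and 5 at 1 h, against 13 and 9. Of those 13 and 9 calls, 10 in all were kept and 12 kept their direction only. With quantile normalization 9 were called for lincomycin at 4 h, against 14. With the mean of both 0 h sets, light responses called 13 at 0.5 h and 14 at 1 h with lincomycin, and 7 at 0.5 h without it, against 3, 6 and 3. Leaving out each array in turn gave 5 to 10 calls for lincomycin at 1 h (5 without array 1 or array 4 at 1 h with lincomycin), 1 to 4 for the light response at 0.5 h with lincomycin (1 without array 1 at 0.5 h with lincomycin), and 2 to 5 at 0.5 h without it (5 without array 4 at 24 h without lincomycin).

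Among called genes and among differences of the 7 genes whose arrays did not overlap, direction turned for PRR5 under lincomycin at 0 h with numbers 1 to 4 alone (0.18), for DREB1A at 24 h without lincomycin with the mean of both 0 h sets (-0.075), for RVE2 at 0.5 h with lincomycin (-0.10) and RVE1 at 4 h with lincomycin (-0.18) under that same choice, and for RVE2 under lincomycin at 1 h within sets of like spike-in level (0.0094). Among differences whose arrays overlapped, the mean of both 0 h sets also turned LNK2 (-0.65), LNK3 (-0.75), RVE2 (0.05) and RVE8 (-0.41) at 4 h with lincomycin, RVE2 at 1 h (-0.19) and LNK2 at 0.5 h (0.72) with lincomycin, and LNK2 at 0.5 and 1 h (0.24 and 0.21) and LNK4 at 0.5 h (-0.07) without it, and leaving out array 4 turned LNK1 under lincomycin at 24 h (-0.19). The cause was not tested. With the replicate number as a block, 20 of 41 genes were called for lincomycin at 0 h, against 22, and no count of calls moved by over 1.5 times; 14 of 38 arrays correlated best with their own number. The block could not be fitted for light responses at 4 and 24 h, whose 0 h arrays share no number with them. The authors' ratios, in the authors' deposited table, had the sign of the differences here in 75 of 77 comparisons of the 7 genes; the exceptions were LNK2 at 0.5 h in both treatments. In size 34 of the 77 differed by over 1 SD, as for lincomycin at 0 h, where the authors' deposited table gives -1.87 for LNK1 and -2.43 for LNK2, against -0.59 and -1.13 here. The values here cover both 0 h sets, and in numbers 5 to 8 alone they were -1.15 and -1.64. Over 10696 probe sets the authors' 0 h ratios had a Pearson's r of 0.956 with numbers 5 to 8 and 0.678 with numbers 1 to 4. With quantile normalization 130 of 133 differences of the 7 genes moved by less than 1 SD, and none of those without overlap changed direction. Signal near the floor limits RVE8.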
